A study of Mus musculus with 4 samples.

Results

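The comparison described here was between RAW264.7 macrophages kept under hypoxia with IL6 (HC+IL6) and the untreated cells kept in normoxia (NC), each measured on 1 array. It covers the 15543 of 45101 probe sets whose log2 signal reached 7.5 on at least 1 of these 2 arrays. A probe set is a group of short probes for 1 transcript, and the log2 signal of 7.5, a signal of 181.0, served as the floor of reliable measurement. These probe sets stood for 8548 of the 18194 genes on the array, each gene being represented by its brightest probe set. A value under the floor was raised to it before the log2 ratio was taken, so the fold of such a gene is a bound and is written as at least that large. A gene was called higher or lower at a change of 2-fold, a log2 ratio of 1.0, between HC+IL6 and NC. The log2 ratio of HC+IL6 over NC is named the net ratio below.

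RAW264.7 is a mouse macrophage-like line derived from a tumour induced by Abelson murine leukaemia virus, and a line of this kind is a single established culture rather than primary macrophages. The study placed these cells for 4 days in normoxia (NC), in normoxia with IL6 (NC+IL6), in hypoxia (HC) or in hypoxia with IL6 (HC+IL6). Hypoxia was 1% oxygen, IL6 was given at 25 ng/ml, while the sources used here do not state the oxygen of the normoxic cultures. The question of the study was how a hypoxic tumour environment and IL6 act together on the state of macrophages.

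When oxygen is scarce, the hypoxia-inducible factors (HIF) are no longer hydroxylated and degraded, and they switch on genes for glycolysis, vessel growth, pH control and mitochondrial turnover. IL6 binds its receptor together with gp130, activates JAK kinases and STAT3, and through STAT3 induces its own inhibitor SOCS3 along with acute-phase and survival genes. Macrophages in tumours meet both stimuli at the same time, so the net state depends on where the programs add up and where they pull a gene in opposite directions.

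With 1 array per condition there is no replicate, no test and no p-value, and every statement below describes these arrays. The only measure of error was the disagreement between probe sets of the same gene, with a pooled SD of 0.30 for the net ratio on the log2 scale over 9158 probe sets of 3577 genes, which is not the spread between cultures. Of all probe sets, 31.5% reached the floor in NC and 33.3% in HC+IL6, and Actb, a gauge of RNA integrity, had a 3′ signal 1.54 and 1.62 times its 5′ signal. The macrophage genes Csf1r, Cd68, Lyz2 and Adgre1 were all above the floor, with log2 signals in HC+IL6 of 14.73, 13.62, 15.11 and 11.46. None of 25 markers of T cells, B cells, granulocytes, mast cells, epithelium, endothelium, fibroblasts or natural killer cells reached the floor in NC or HC+IL6, the brightest value being 7.18 for Epcam in NC. All 15 measured housekeeping genes stayed within 2-fold, with net ratios from -0.55 for Sdha to 0.39 for Gapdh. In bulk RNA, a change in the number of cells that express a gene and a change in RNA per cell cannot be told apart.

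After both stimuli, more genes were higher than lower. Of the 8548 genes, 406 were higher in HC+IL6 than in NC, a share of 4.75%, and 138 were lower, a share of 1.61%, which made 544 (6.36%) in either direction. Of the probe sets, 741 were higher (4.77%) and 251 lower (1.61%). The largest changes were nearly all upward, since 64 genes (0.749%) were higher by 4-fold or more and 16 (0.187%) by 8-fold or more, whereas 1 gene (0.0117%), Ighm, was lower by 4-fold or more. The median net ratio of all genes was -0.02. Over all probe sets, dim ones included, the median log2 signal was 5.64 in NC and 5.86 in HC+IL6. After quantile normalization 373 genes were higher and 169 lower. Of the calls, 90 of the 406 higher and 8 of the 138 lower genes were bounds because 1 of the arrays lay under the floor. At the edges of the rules, Pigb just reached the floor with a highest log2 signal of 7.5012 and Zfp87 just missed it at 7.4995, Pde8a was just called higher at a net ratio of 1.0002 and Ctbs just not at 0.998, and Wdr6 was just called lower at -1.003 and Klk1 just not at -0.999.

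**Figure D1:**
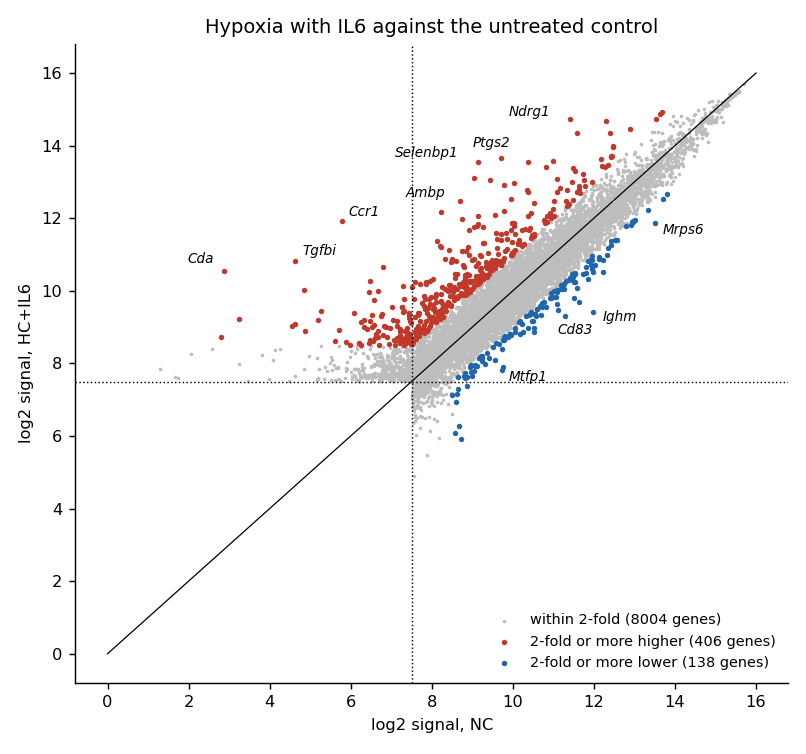
The log2 signal in HC+IL6 (vertical axis) is plotted against that in NC (horizontal axis) for 8548 genes, 1 point per gene and 1 array per condition, with the floor of 7.5 as dotted lines and equal signal as the solid line. The 406 genes higher by 2-fold or more (red) reach farther from the line than the 138 lower genes (blue), and Ccr1, Tgfbi and Cda rise from under the floor in NC.

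The gene highest after both stimuli was Ccr1, the receptor of the chemokines CCL3 and CCL5. Its log2 signal was 5.77 in NC, 7.57 in HC, 9.91 in NC+IL6 and 11.91 in HC+IL6, which made it at least 21.2-fold higher after both. Each stimulus alone left Ccr1 well below the level reached with the pair, and a second probe set of Ccr1 had a net ratio of 0.25 only. Selenbp1, a selenium-binding protein that oxidizes methanethiol, followed at 9.15, 12.66, 10.63 and 13.54 in the same order of arrays, a 21.0-fold increase, and its second probe set gave a net log2 ratio of 4.76. Basp1, a membrane protein first known from growing axons, rose from 9.03 to 13.11 (16.9-fold) and stood at 11.33 with hypoxia alone and 11.62 with IL6 alone. Ptgs2, the inducible cyclooxygenase that starts prostaglandin synthesis, had 9.72 in NC, 11.08 in HC, 12.49 in NC+IL6 and 13.66 in HC+IL6, a 15.4-fold increase. In these genes HC+IL6 was the highest array and each stimulus alone gave an intermediate level. Rtel1, a helicase that protects telomeres, was 15.6-fold higher by its brightest probe set, but another probe set had a net ratio of -0.62, so the gene has no settled direction.

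The rest of the 20 highest genes had varied functions. Ambp, the precursor of a haem-scavenging protein and a protease inhibitor, had log2 signals of 8.69 in NC, 9.53 in HC, 11.85 in NC+IL6 and 12.49 in HC+IL6 (13.9-fold). Wfdc17, a secreted WAP-domain protein, had 9.43, 10.28, 10.90 and 13.05 in this order (12.3-fold), with the pair far above each stimulus alone. Tgfbi, a matrix protein, was under the floor in NC at 4.63 and in HC at 6.63, and reached 9.90 in NC+IL6 and 10.83 in HC+IL6, at least 10.1-fold above NC. Bst1 (CD157), an ectoenzyme of NAD metabolism, rose 8.14-fold from 8.21 to 11.23, through 9.35 in HC and 10.35 in NC+IL6. Anxa3, an annexin, rose 8.73-fold from 9.79 to 12.92, and its levels with hypoxia alone (11.85) and IL6 alone (11.53) were close to each other. The enzymes Gda, a guanine deaminase, and Cda, a cytidine deaminase, were 9.41-fold and at least 8.31-fold higher. The Cda signal was under the floor in NC (2.87) and HC (6.17) and reached 8.63 in NC+IL6 and 10.56 in HC+IL6. Prelid2, of a family of mitochondrial lipid carriers, rose 7.56-fold from 9.13 to 12.05, with 11.40 in HC and 10.53 in NC+IL6.

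Of the 20 highest genes, 18 had their highest level in HC+IL6. The exceptions were Ccl4 and Ifi202b, which were highest with IL6 alone. Ccl4, a chemokine for monocytes and T cells, had log2 signals of 10.03 in NC, 10.38 in HC, 13.20 in NC+IL6 and 12.97 in HC+IL6, a net increase of 7.69-fold. Ifi202b, an interferon-inducible DNA-binding protein, had 8.13, 8.65, 12.59 and 11.38, so the pair left it 9.52-fold above NC and below IL6 alone. Among all 406 higher genes, 329 had their highest level in HC+IL6, 44 in NC+IL6 and 33 in HC. Since the genes were chosen for a high HC+IL6 signal, these counts only describe them.

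**Figure D2:**
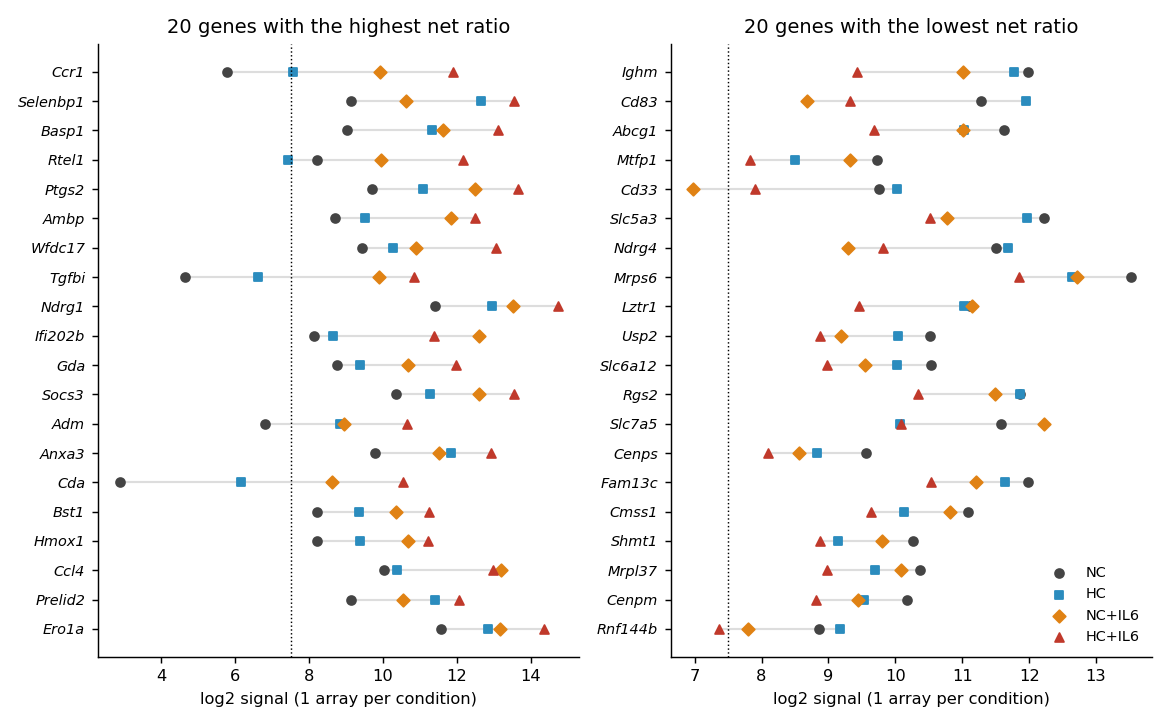
The log2 signal on each of the 4 arrays (horizontal axis) is shown for the 20 genes with the highest (left) and the 20 with the lowest (right) net ratio, with 1 symbol per array and the floor of 7.5 dotted. On the left, HC+IL6 is the highest symbol for 18 of 20 genes, and on the right it is the lowest for 16 of 20.

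The lower genes moved less far. Ighm, the heavy chain of IgM, had a log2 signal of 11.98 in NC, 11.77 in HC, 11.01 in NC+IL6 and 9.42 in HC+IL6, and was 5.89-fold lower after both. The B-cell markers Cd79a and Ms4a1 were under the floor on all 4 arrays, and the other probe sets of Ighm had net ratios of -2.40 and -0.07. Cd83 and Cd33, a surface marker of mature dendritic cells and a sialic acid receptor of myeloid cells, were lower with IL6 and not with hypoxia. The Cd83 signal was 11.28 in NC, 11.96 in HC, 8.68 in NC+IL6 and 9.32 in HC+IL6, a 3.92-fold decrease after both. That of Cd33 was 9.75, 10.03, 6.97 and 7.90, a 3.61-fold decrease. For both genes the untreated and the hypoxic array were high, and the IL6 arrays were low. Abcg1, which exports cholesterol, was 11.62 in NC, 11.03 in HC, 11.01 in NC+IL6 and 9.68 in HC+IL6 and was 3.83-fold lower after both. Another probe set of Abcg1 had a net ratio of -0.52 only. Mtfp1, a factor of mitochondrial fission, was 3.73-fold lower, from 9.73 in NC through 9.32 in NC+IL6 and 8.50 in HC to 7.83 in HC+IL6.

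Transporters of organic osmolytes and amino acids were among the 20 lowest genes. Slc5a3, the sodium-coupled transporter of myo-inositol, had log2 signals of 12.22 in NC, 11.97 in HC, 10.77 in NC+IL6 and 10.52 in HC+IL6, a 3.26-fold decrease. Slc6a12, the betaine transporter, had 10.53, 10.02, 9.54 and 8.98 in this order, a 2.94-fold decrease. In both, the IL6 arrays were the lowest. Mrps6, a protein of the mitochondrial ribosome, was 3.16-fold lower, but its gene overlaps Slc5a3 in the RefSeq annotation of GRCm38.p6, so signals of the pair may not be separate. Slc7a5, the light chain of a large neutral amino acid transporter, was 11.58 in NC, 10.07 in HC, 12.23 in NC+IL6 and 10.09 in HC+IL6. Its 2.80-fold decrease after both matched the level with hypoxia alone. Rgs2, a regulator of G-protein signalling, was 11.87 in both arrays without IL6, 11.49 in NC+IL6 and 10.33 in HC+IL6, and was 2.89-fold lower only with the pair. Lztr1 was also low in HC+IL6 alone (9.46, against 11.12 in NC), but another probe set had a net ratio of 0.13. The rest of the 20 lowest, with decreases of 2.58-fold to 3.25-fold, were Ndrg4, the deubiquitinase Usp2, the centromere proteins Cenps and Cenpm, the one-carbon enzyme Shmt1, the mitochondrial ribosomal protein Mrpl37, and Fam13c, Cmss1 and Rnf144b. For Rnf144b the fold is a bound.

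HIF target genes were the list most often higher. The lists were chosen with earlier results of these data known, so the counts only describe their members. Of 43 listed genes 41 were on the array and 36 were measured, of which 23 were higher and 0 lower, against the background of 4.75% higher and 1.61% lower. The median net ratio was 1.49, against -0.02 for all genes, and 11 of the genes were higher by 4-fold or more. A gene that was under the floor in NC is measured only if it was bright in HC+IL6, which applied to 8 of the 36 and to 5 of the 23 higher ones. The median of the same genes was 0.80 with hypoxia alone and 0.71 with IL6 alone. The list's median was thus above NC on the IL6 array at normal oxygen too, and all of these ratios share the NC array. Ndrg1, a stress-induced protein of the N-myc downstream family, had log2 signals of 11.40 in NC, 12.97 in HC, 13.51 in NC+IL6 and 14.73 in HC+IL6 (10.1-fold), and 4 further probe sets had net ratios of 3.45 to 4.08. Adm, the vasodilator peptide adrenomedullin, was under the floor in NC at 6.80 and had 8.84 in HC, 8.93 in NC+IL6 and 10.66 in HC+IL6, at least 8.91-fold above NC. Ero1a, an oxidase for disulfide bonds in the endoplasmic reticulum, had 11.58, 12.85, 13.17 and 14.36 (6.85-fold). In these 3 genes hypoxia alone and IL6 alone gave similar levels and the pair gave the highest. Hmox1, haem oxygenase, leaned towards IL6, with 8.22 in NC, 9.37 in HC, 10.68 in NC+IL6 and 11.21 in HC+IL6 (7.93-fold). Ankrd37 and Mgarp, a small ankyrin protein and a mitochondrial transport protein, leaned towards hypoxia. Ankrd37 had 9.04, 11.35, 9.81 and 11.77 (6.62-fold), and Mgarp had 6.46, 9.23, 7.90 and 9.96 (at least 5.51-fold). Others that rose were the mitophagy receptor Bnip3 (3.88-fold), the oxygen sensor Egln1 (2.21-fold) and the angiogenic factor Vegfa (at least 3.75-fold, with another probe set at a net log2 ratio of 0.47). Hif1a itself had a net ratio of 0.18, and the lowest member was Tfrc, the transferrin receptor, at -0.26.

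The promoters of 5 HIF targets that rose are shown to give the motif in its context. The printed match nearest the start begins at base -54 in Adm, -63 in Ero1a, -6 in Ankrd37, -177 in Selenbp1 and -219 in Mgarp, counted from the start. They are the 5 with the highest net ratio among those whose window held a hypoxia response element before the start, so the choice used the motif. The stretches come from RefSeq on GRCm38.p6, run 5′ to 3′ on the gene's strand and end at or before the start site. Capitals mark the core letters ACGTG or GCGTG on either strand.
Selenbp1 (chr3:94932848-94932968, plus strand): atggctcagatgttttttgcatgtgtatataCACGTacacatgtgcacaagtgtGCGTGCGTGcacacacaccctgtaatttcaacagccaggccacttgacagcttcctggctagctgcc
Adm (chr7:110627545-110627656, plus strand): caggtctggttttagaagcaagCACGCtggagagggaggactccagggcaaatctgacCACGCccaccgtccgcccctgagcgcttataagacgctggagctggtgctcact
Ero1a (chr14:45318573-45318693, minus strand): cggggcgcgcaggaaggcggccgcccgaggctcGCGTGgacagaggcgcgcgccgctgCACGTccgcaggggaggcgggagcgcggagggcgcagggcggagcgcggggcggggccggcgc
Ankrd37 (chr8:45999851-45999914, minus strand): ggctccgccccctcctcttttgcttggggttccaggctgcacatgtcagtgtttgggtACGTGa
Mgarp (chr3:51396704-51396797, minus strand): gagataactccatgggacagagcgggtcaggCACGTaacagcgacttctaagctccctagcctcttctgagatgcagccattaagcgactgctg

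These letters were in 79.1% of 43 promoter windows of the measured HIF targets, windows that span 250 bases before and 50 after the start. They were also in 64.5% of the windows of all measured genes, in 57.9% of those of the genes higher after both and in 43.8% of all 32851 promoters. For the measured ATF4 and amino acid stress genes, described below, the share was 83.9% of 31 windows, above that of the HIF targets. A short core of this kind is thus common. A match is a description of the letters and not a bound site.

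Glycolysis genes moved less than other HIF targets. Of 22 measured genes 7 were higher and 0 lower, with a median net ratio of 0.41, and all 22 lay above 0. The 7 that rose were Pfkfb3, Eno2, Slc2a1, Aldoc, Hk3, Pfkp and Hk1. Pfkfb3, which makes the activator of phosphofructokinase, had log2 signals of 7.58 in NC, 9.49 in HC, 9.02 in NC+IL6 and 10.25 in HC+IL6 (6.38-fold). Eno2, an enolase isoform, was under the floor in NC at 6.09 and reached 9.38 in HC+IL6, at least 3.68-fold higher. Slc2a1, the main glucose transporter, rose 2.85-fold (12.47, 12.95, 13.82 and 13.98), and Aldoc, an aldolase isoform, 2.81-fold (11.73, 12.94, 11.97 and 13.22). Slc2a1 was high in the IL6 arrays and Aldoc in the hypoxic arrays. Hk3, Pfkp and Hk1, a pair of hexokinases and a phosphofructokinase, rose by 2.59-fold, 2.38-fold and 2.07-fold. Bright enzymes of the main path changed little, with net ratios of 0.30 for Ldha, 0.38 for Pgk1 and 0.12 for Pkm.

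Of 30 measured IL6 and STAT3 targets 15 were higher and 0 lower, and 6 of the 30, of which 4 were called, were under the floor in NC. Their median net ratio was 0.99, and it was 0.17 with hypoxia alone and 0.79 with IL6 alone. Socs3, the feedback inhibitor of the IL6 receptor, had log2 signals of 10.36 in NC, 11.26 in HC, 12.59 in NC+IL6 and 13.55 in HC+IL6, a 9.14-fold increase. Ier3, an early response gene of survival signalling, had 10.82, 12.15, 13.22 and 13.41 (6.05-fold). Both were high on the IL6 arrays and intermediate with hypoxia alone. Mt2, a metal-binding metallothionein, rose 5.20-fold (12.29, 12.94, 14.26 and 14.67), and its relative Mt1 rose 2.35-fold. Bcl3, a co-factor of NF-kB, had 7.81, 8.02, 9.12 and 9.85 (4.11-fold), and Zfp36, which destabilizes cytokine mRNA, had 9.29, 9.84, 10.94 and 11.32 (4.08-fold). Stat3 itself was 2.64-fold higher after both, from 9.18 to 10.58, with 9.14 in HC and 10.27 in NC+IL6. The subunits of the IL6 receptor were not called, with net ratios of -0.26 for Il6st and -0.59 for Il6ra, and each had a second probe set of the opposite sign (0.40 and 0.13).

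Chemokines and their receptors included 6 higher and 0 lower genes of 15 measured, with a median net ratio of 0.68, and 6 of the 15, of which 4 were called, were under the floor in NC. The median was 1.27 with dim values as deposited. Besides Ccr1 and Ccl4, these were Cxcl2, Ccl2, Ccr2 and Ccl3. Cxcl2, which attracts neutrophils, had log2 signals of 6.49 in NC, 9.28 in HC, 12.39 in NC+IL6 and 10.26 in HC+IL6. It was at least 6.77-fold above NC after both, yet below its level with IL6 alone. Ccl2, which attracts monocytes, had 5.27, 7.12, 8.54 and 9.43, at least 3.82-fold above NC. Ccl3, a ligand of Ccr1, followed IL6, with 12.43, 12.31, 13.80 and 13.70 (2.41-fold). Cx3cr1, the fractalkine receptor, was not called at a net ratio of -0.89, with 13.04 in NC and 12.15 in HC+IL6.

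Secreted factors of vessel growth and migration included 9 higher and 0 lower genes of 20 measured, with a median net ratio of 0.79, and 6 of the 20, of which 4 were called, were under the floor in NC. Vegfa had log2 signals of 7.28 in NC, 8.74 in HC, 9.01 in NC+IL6 and 9.41 in HC+IL6. Plaur, the receptor of urokinase, had 8.92, 9.46, 10.97 and 10.98 (4.16-fold), and its ligand Plau had 11.0005, 11.25, 11.41 and 12.25 (2.37-fold). Plaur followed IL6, whereas Plau passed 2-fold only with the pair. The growth factors Pdgfb and Igf1 rose by 2.17-fold and 2.06-fold and followed hypoxia, with 9.14 and 11.14 in HC and 9.36 and 11.04 in HC+IL6. Tnf, an inflammatory cytokine, rose 2.20-fold, from 8.48 to 9.61 and was highest with IL6 alone at 10.21. Angptl4, a HIF-responsive inhibitor of lipoprotein lipase, had the lowest net ratio of the list, -0.84.

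Marker genes of M2 (alternatively activated) and of M1 (classically activated) macrophages were few above the floor. Of 32 M2 genes 12 were measured, of which 6 were higher and 0 lower, with a median net ratio of 1.09. Of the 12, 5 were under the floor in NC and so entered only through a high HC+IL6 signal, among them 4 of the 6 higher genes (Il10, Ccr2, Egr2 and Tgm2). Of 25 M1 genes 12 were measured, of which 5 were higher and 0 lower, with a median of 0.60, and 4 of the 12 were under the floor in NC. The medians depended on how dim values were treated, since that of M2 genes was 0.63 at a floor of 8.0 and 2.0 with dim values as deposited, and that of M1 genes was 1.08 with dim values as deposited. The lists were therefore not compared with each other. Clec10a, a galactose-binding lectin, had log2 signals of 8.84 in NC, 10.22 in HC, 10.66 in NC+IL6 and 11.09 in HC+IL6 (4.77-fold). Msr1, a scavenger receptor, had 11.10, 11.42, 12.67 and 13.09 (3.98-fold). Both were highest with the pair, Msr1 close to IL6 alone. Egr2, an early transcription factor, was at least 2.45-fold higher but not called at a floor of 8.0 (net ratio 0.80), and the crosslinking enzyme Tgm2 at least 2.36-fold higher, with its other probe sets at net ratios of 0.08 to 0.79. On the M1 side, Ptgs2, Socs3, Cxcl2 and Tnf were higher as given above, and Fcgr1, the high-affinity IgG receptor, rose 2.03-fold (11.35, 11.13, 13.08 and 12.37).

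The genes that the study names as markers or for its arrays were mostly too dim to measure, with 4 of 17 at the floor or above in NC or HC+IL6. They were chosen by the study on these cells, so they are not independent of them. Il10, an anti-inflammatory cytokine, was under the floor in NC (5.20), HC (4.88) and NC+IL6 (7.19) and reached 9.20 in HC+IL6, at least 3.25-fold above NC. Ccr2, the receptor of CCL2, was 6.58 in NC, 7.94 in HC, 7.498 in NC+IL6 and 9.05 in HC+IL6, at least 2.92-fold above NC. Its 3 other probe sets stayed under the floor, the brightest at 7.47. Both genes were thus highest with the pair. Adgre1, an adhesion receptor that marks mouse macrophages, had 11.05, 11.67, 11.09 and 11.46, a net ratio of 0.41. Arg1, the arginase of M2 cells, was under the floor on all arrays, though highest in HC+IL6 (2.43, 5.37, 1.70 and 7.27). Mrc1, Cd209a, Chil3, Cd86, Il6, Il12a, Il12b, Il1a, Ifna1, Cxcr2, Fcer2a and Scara5 also stayed under the floor on all 4 arrays and gave no fold.

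Early response genes downstream of ERK were raised in part, and the kinases of the MAPK cascade were not called. Of 29 measured early response genes 10 were higher and 0 lower, with a median net ratio of 0.48, and 5 of the 29, of which 3 were called, were under the floor in NC. Dusp6, a phosphatase that switches off ERK, had log2 signals of 9.13 in NC, 10.68 in HC, 10.74 in NC+IL6 and 11.85 in HC+IL6 (6.58-fold). Egr1, an early transcription factor, had 10.37, 13.00, 12.42 and 12.72 (5.08-fold). Phlda1 and Klf2 were at least 3.60-fold and at least 3.24-fold higher. Dusp6 was highest with the pair, whereas Egr1 was on a similar level in all 3 treated conditions. Fos was not called, with a net ratio of -0.30, and Egr3, raised with hypoxia alone (7.81 in NC and 10.14 in HC), was back at 8.21 in HC+IL6. Of 15 measured MAPK cascade genes 0 passed 2-fold in either direction. Of all genes 6.36% did, so few calls are due in a list this short. Net ratios ran from -0.88 for Map2k3 to 0.87 for Rps6ka3, a kinase downstream of ERK.

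Of 22 measured genes of macrophage identity 7 were higher and 0 lower, with a median net ratio of 0.27, and the other 15 stayed within 2-fold. Itgam (CD11b), an integrin chain of complement receptor 3, had log2 signals of 8.43 in NC, 10.08 in HC, 9.43 in NC+IL6 and 11.12 in HC+IL6 (6.46-fold). The IgG receptors Fcgr2b and Fcgr3 had 9.95, 10.68, 12.07 and 12.53 (5.99-fold) and 10.36, 12.16, 11.66 and 12.76 (5.30-fold). All 3 were highest with the pair, Itgam and Fcgr3 leaning towards hypoxia and Fcgr2b towards IL6. Cebpa, a transcription factor of the myeloid lineage, rose 3.47-fold and Aif1, an actin-binding protein, at least 3.54-fold. Not called were Csf1r, the receptor of M-CSF, with a net ratio of -0.27, the lineage factor Spi1 (PU.1) with -0.30 and the lipopolysaccharide co-receptor Cd14 with 0.15. Of the MHC class II and costimulation genes only 4 were measured, and Cd74, the invariant chain, was 2.37-fold higher (9.37, 11.04, 8.75 and 10.62), high in the hypoxic arrays. Among 9 measured osteoclast genes, Nfatc1, the master factor of osteoclasts, was 2.57-fold lower (10.70, 11.11, 9.34 and 9.33) and 0 were higher. The 3 other probe sets of Nfatc1 had net ratios from -1.08 to -0.22.

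Genes of growth and respiration had negative median net ratios, with most changes under 2-fold. Of 43 measured DNA replication and cell cycle genes, 37 had a net ratio below 0, the median was -0.54, 3 were lower and 1 higher. Bub1b, of the spindle checkpoint, was 2.55-fold lower (11.95 in NC, 11.35 in HC, 11.42 in NC+IL6 and 10.60 in HC+IL6), Mcm6, of the replicative helicase, 2.09-fold and the mitotic kinase Aurka 2.06-fold. For Bub1b each stimulus alone lay between NC and the pair. Ccng2, a cyclin of non-dividing cells, was 2.07-fold higher. Of 40 measured oxidative phosphorylation genes, 36 had a net ratio below 0 with a median of -0.26. None passed 2-fold, against 6.36% of all genes. The lowest were Ndufa4 at -0.66, Cyc1, the cytochrome of complex III, at -0.65 and Ndufs8 at -0.63.

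Redox and lipid handling genes showed no common direction. Of 22 measured redox and iron genes 4 were higher and 0 lower with a median net ratio of -0.02, namely Hmox1, Mt2, Mt1 and Txnip, an inhibitor of thioredoxin that rose 2.17-fold. Of 22 measured lysosome and lipid handling genes 1 was higher and 3 lower, with a median of 0.25. Plin2, which coats lipid droplets, rose 2.47-fold (11.76, 12.74, 12.78 and 13.06), while Abcg1, the lysosomal lipase Lipa (2.23-fold) and the glycoprotein Gpnmb (2.21-fold) were lower. Of 16 measured fatty acid synthesis genes, Fads2 (2.45-fold) and Fasn (2.09-fold), a desaturase and the fatty acid synthase, were lower and Hacd4, a dehydratase of chain elongation, was 4.96-fold higher. Hacd4 had log2 signals of 8.03 in NC, 10.73 in HC, 8.97 in NC+IL6 and 10.34 in HC+IL6, highest in hypoxia alone.

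**Figure D3:**
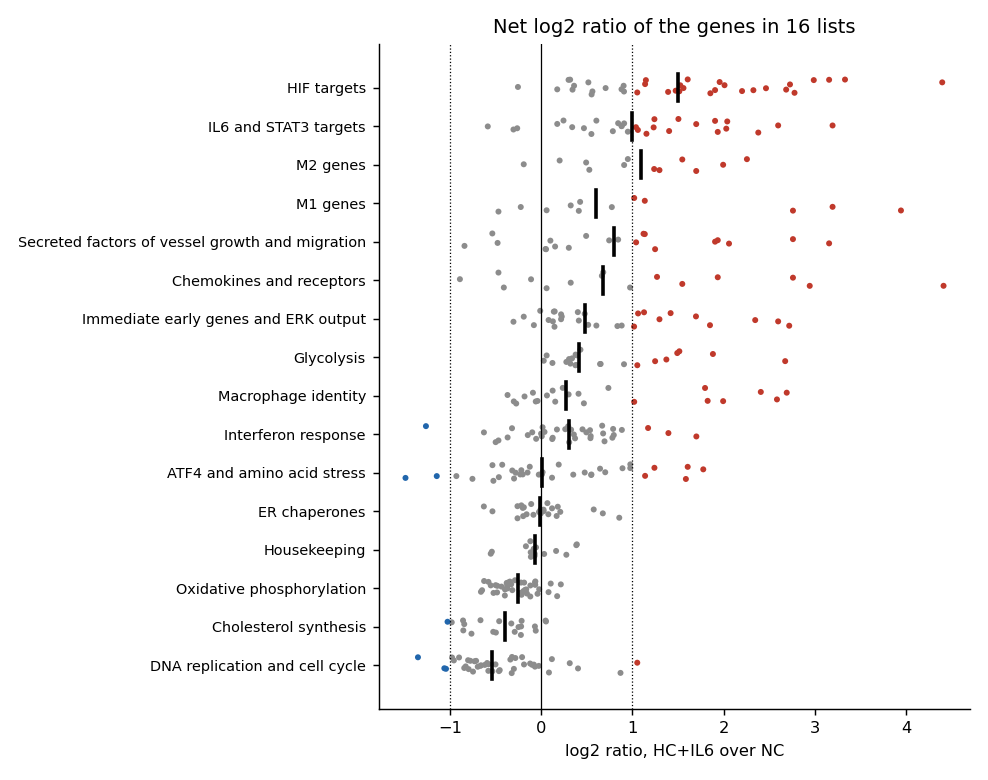
Each point is the net log2 ratio of HC+IL6 over NC (horizontal axis) of 1 measured gene in 1 of 16 gene lists (vertical axis), with red at 1 or more, blue at -1 or less, black bars at list medians and points spread vertically only for legibility. The medians run from 1.49 for HIF targets, 1.09 for M2 genes and 0.99 for IL6 and STAT3 targets down to -0.54 for DNA replication and cell cycle genes. A gene under the floor in NC is shown only if bright in HC+IL6. This held for 8 of 36 HIF targets, 5 of 12 M2 genes and 6 of 30 IL6 and STAT3 targets. The M2 median depended on how dim values were treated, so its place among the lists is not settled.

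The stimuli cancelled in a small group of genes. A gene was counted as cancelling if hypoxia alone moved it by 1.5-fold or more one way, IL6 alone moved it by 1.5-fold or more the other way, and the pair left it within 1.5-fold of NC. This held for 93 of 8548 genes, a share of 1.09%. In 55 of them (0.643%) hypoxia was the raising and IL6 the lowering stimulus, and in 38 (0.445%) hypoxia lowered and IL6 raised them. With 2-fold asked of each stimulus, 15 genes (0.175%) were left. All 3 ratios share the NC array, so an error in the NC signal of a gene moves them together. By a second count, 83 genes (0.971%) were moved 2-fold or more by at least 1 stimulus and had a net ratio within 0.32 of 0 after both, of which hypoxia alone had raised 35 and lowered 17, and IL6 alone had raised 25 and lowered 16, with 10 genes moved 2-fold by each stimulus and so counted under both. Staying within 1.5-fold after both was common, since 6525 genes (76.3%) did so. Each stimulus alone called similar numbers of genes, with 245 (2.87%) higher and 90 (1.05%) lower in HC and 244 (2.85%) higher and 75 (0.877%) lower in NC+IL6.

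**Figure D4:**
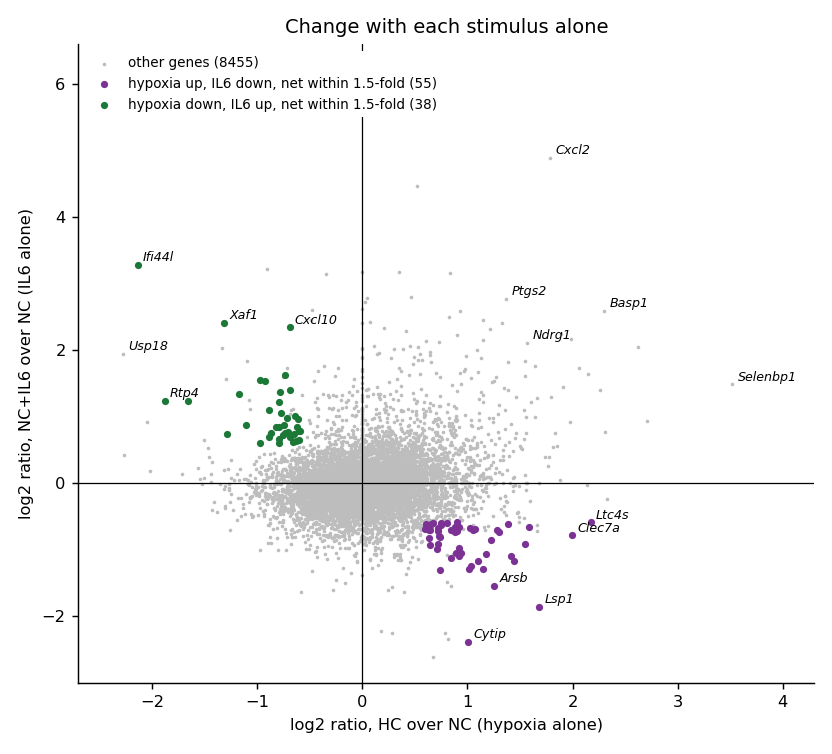
The log2 ratio of NC+IL6 over NC (vertical axis) is plotted against that of HC over NC (horizontal axis) for 8548 genes, with dim values raised to the floor and both ratios sharing the NC array. The 55 cancelling genes raised by hypoxia and lowered by IL6 (purple) lie at the lower right and the 38 of the opposite kind (green) at the upper left, while Selenbp1, Basp1 and Ptgs2 at the upper right were raised by each stimulus.

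Of the 38 genes lowered by hypoxia and raised by IL6, 17 were on the list of interferon-stimulated genes, which interferon receptors switch on and which act against viruses. The list had 37 measured genes, so 17 of 37 cancelled in this direction, against 0.445% of all genes, and 0 of 37 cancelled in the opposite direction. Ifi44l had log2 signals of 9.64 in NC, 6.99 in HC, 12.92 in NC+IL6 and 9.54 in HC+IL6. Hypoxia took it under the floor, IL6 raised it 9.71-fold, and the pair left it 1.07-fold from NC. Rtp4, a chaperone of receptor proteins, had 11.87, 10.00, 13.11 and 11.55, and Xaf1, which promotes apoptosis, had 10.15, 8.84, 12.56 and 10.69. Oas1a, which makes 2-5A and so activates RNase L, had 12.62, 10.97, 13.86 and 12.74. In all of these HC was the lowest array and NC+IL6 the highest, and NC and HC+IL6 lay within 1.5-fold of each other, as the rule asks. Cxcl10, a chemokine for T cells, had 8.70, 8.01, 11.04 and 8.23, so that IL6 raised it 5.06-fold in normoxia, whereas in hypoxia the arrays with and without IL6 were near each other. Igtp and Irgm1, GTPases that act on vacuoles of intracellular pathogens, and Bst2 (tetherin), which holds budding viruses at the membrane, were also lowest in HC and highest in NC+IL6. Igtp had 8.88, 7.71, 10.22 and 9.21, Irgm1 had 9.82, 9.04, 11.19 and 9.32, and Bst2 had 11.25, 10.51, 12.87 and 11.19. Phf11d, which is on no list used here, had 10.77, 9.80, 12.32 and 10.77 and so returned to its NC level. Oas1a, Igtp and Phf11d belong to families of similar genes, whose transcripts a probe set may not tell apart.

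The measured interferon genes had a median net ratio of 0.31, with -0.60 for hypoxia alone and 1.39 for IL6 alone. Of these 37 genes, 25 were within 1.5-fold of NC after both, against 76.3% of all genes, so the list did not stand out by this count. The list had 54 genes, of which 49 were on the array, and 3 of the 37 were under the floor in NC. Genes above the floor only with IL6 alone were left out, such as Ifit1, Ifit3, Rsad2 and Cmpk2 (9.14, 8.82, 9.48 and 9.99 in NC+IL6). Of the 37 genes, 3 were higher and 1 lower, against 4.75% and 1.61% of all genes. Dhx58, a regulator of RNA sensing, rose 3.25-fold (7.59 in NC, 7.79 in HC, 9.92 in NC+IL6 and 9.29 in HC+IL6), Trim30a 2.63-fold (8.75, 8.80, 11.53 and 10.15) and the peptide transporter Tap1 2.25-fold (8.26, 7.44, 9.86 and 9.43). Dhx58 and Trim30a were near the NC level with hypoxia alone. Usp18, which removes ISG15 and dampens interferon signalling, was 2.40-fold lower, with 10.82 in NC, 8.54 in HC, 12.76 in NC+IL6 and 9.55 in HC+IL6, the hypoxic change being the larger.

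The promoters of 5 cancelling interferon genes are shown to give a motif in its context. They are the 5 with the widest span between HC and NC+IL6 that hold an interferon-stimulated response element before the start. They come from RefSeq on GRCm38.p6, run 5′ to 3′ on the gene's strand and end at or before the start site. Capitals mark GAAA, any 2 bases and GAAA on either strand, and where matches overlap the run is longer.
Cxcl10 (chr5:92349037-92349139, minus strand): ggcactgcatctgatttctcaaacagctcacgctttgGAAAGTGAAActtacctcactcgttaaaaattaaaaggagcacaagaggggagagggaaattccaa
Oas1a (chr5:120907526-120907594, minus strand): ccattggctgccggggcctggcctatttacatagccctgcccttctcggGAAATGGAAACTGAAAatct
Igtp (chr11:58199467-58199555, plus strand): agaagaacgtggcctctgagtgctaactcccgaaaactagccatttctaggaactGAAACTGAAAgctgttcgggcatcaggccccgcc
Bst2 (chr8:71537531-71537651, minus strand): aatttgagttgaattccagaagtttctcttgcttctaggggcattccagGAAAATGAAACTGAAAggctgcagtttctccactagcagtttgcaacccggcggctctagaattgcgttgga
Irgm1 (chr11:48871421-48871499, minus strand): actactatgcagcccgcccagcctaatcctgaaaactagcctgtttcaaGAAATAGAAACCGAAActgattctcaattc

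Windows of 300 bases with this motif made up 23.5% (8 of 34) for the 38 genes lowered by hypoxia and raised by IL6, 36.8% (14 of 38) for the measured interferon list, 3.28% for the 55 cancelling genes of the opposite kind, 2.97% for all measured genes and 3.44% for all promoters. An amino acid response element, TGATGNAA on either strand, was in 14.7% of the windows of the 38 genes and in 2.09% of those of all measured genes. A STAT site, TTCCNGGAA or TTCNNNGAA, was in 20.6% of the windows of the 38 genes, 23.7% of the interferon list and 6.57% of all measured genes. It was in 15.2% of the windows of the measured IL6 and STAT3 targets and 19.4% of the ATF4 and amino acid stress list. The interferon element and a STAT site can overlap. No test was made of these shares, and many of the 38 genes are interferon or stress genes by the lists.

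The ATF4 and amino acid stress list was the other source of the 38 genes. ATF4 is translated when amino acids are short or proteins misfold, and it switches on amino acid transport and synthesis. Of 35 measured genes 6 cancelled, namely Mthfd2, Asns, Herpud1, Slc3a2, Wars and Aars. Asns, the asparagine synthetase, had log2 signals of 12.72 in NC, 12.01 in HC, 13.70 in NC+IL6 and 12.74 in HC+IL6, and Mthfd2, of mitochondrial folate metabolism, had 12.28, 11.18, 13.15 and 12.16. Both returned to the NC level with the pair. Over the list the median net ratio was 0.01, with -0.48 for hypoxia alone and 0.73 for IL6 alone. Still, 5 genes were higher and 2 lower after both. Aldh1l2, of mitochondrial folate metabolism, rose 3.42-fold (9.20, 10.17, 10.92 and 10.97), Ddit4, an inhibitor of mTORC1, 3.04-fold (9.15, 10.80, 10.91 and 10.76), and Cth, which makes cysteine, 3.0-fold (8.41, 7.19, 11.62 and 9.99). Aldh1l2 and Ddit4 were high in all 3 treated conditions, and Cth only with IL6. Chac1, which degrades glutathione, was 2.21-fold lower (8.79, 7.25, 10.37 and 7.65), like Slc7a5. Atf4 itself was 12.62, 11.53, 13.51 and 11.87, a net ratio of -0.75. Of the 38 genes, 23 were on the interferon or the stress list and 13 on no list.

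ER chaperones and folding enzymes were near NC after both, as most genes were. Of 25 measured genes 0 passed 2-fold and 22 lay within 1.5-fold, against 6.36% and 76.3% of all genes. The median net ratio was -0.01, against -0.02 for all genes, with -0.53 for hypoxia alone and 0.24 for IL6 alone. Creld2, a folding factor, had log2 signals of 12.34 in NC, 11.05 in HC, 13.07 in NC+IL6 and 12.33 in HC+IL6. Dnajb9, a co-chaperone of BiP, had the highest net ratio, 0.855, and Fkbp11, a prolyl isomerase, the lowest, -0.63.

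The 55 genes raised by hypoxia and lowered by IL6 had no such common list, and 52 of them were on no list used here. Of these, 10 passed 2-fold for each stimulus, namely Lsp1, Cytip, Arsb, Plxnd1, Bmf, Alox5, Ankrd44, Raph1, Mgst2 and Hipk2. Lsp1, an actin-binding protein of leukocytes, had log2 signals of 9.36 in NC, 11.04 in HC, 7.31 in NC+IL6 and 9.11 in HC+IL6. Cytip, which regulates the adhesion of leukocytes, had 11.16, 12.17, 8.78 and 10.93, and Plxnd1, a semaphorin receptor, had 8.67, 10.11, 7.02 and 9.0. In these genes HC was the highest array and NC+IL6 the lowest, as the rule asks. Arsb, a lysosomal sulfatase, had 12.64, 13.89, 11.09 and 12.82. Clec7a (Dectin-1), the receptor of fungal beta-glucan, had 9.64, 11.64, 8.86 and 9.84. It was the only one of the M2 list that cancelled.

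The 55 genes also held Ltc4s, Alox5 and Mgst2, the latter pair named after their values were seen. Alox5, the 5-lipoxygenase that begins leukotriene synthesis, had log2 signals of 9.71 in NC, 10.85 in HC, 8.42 in NC+IL6 and 9.43 in HC+IL6. Ltc4s, the leukotriene C4 synthase, had 8.09, 10.26, 6.63 and 7.92, and its relative Mgst2, a microsomal glutathione transferase, had 10.86, 11.96, 9.69 and 10.85. All 3 were high with hypoxia alone, low with IL6 alone and near NC with the pair, as the rule for the 55 genes asks. Ltc4s was under the floor in NC+IL6 and only just passed 1.5-fold there, at a log2 ratio of -0.59. No list of leukotriene genes was used, so other genes of the pathway were not described. Ptgs2, of the prostaglandin branch, was in contrast raised by each stimulus, as given above. Bmf, a death-promoting member of the BCL2 family, had 8.72, 10.13, 7.62 and 8.60. Of the 10 genes, Cytip and Arsb had another probe set with a net ratio of opposite sign, 0.16 and -0.16, both close to NC as well, and 5 further probe sets of Hipk2 ranged from -0.14 to 0.92.

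Cholesterol synthesis was a different kind of reversal, and a partial one, because IL6 alone left it at the NC level. The pathway turns acetyl-CoA into cholesterol and is driven by SREBP2 when sterols are low. Of 20 measured genes, 16 were 2-fold or more lower in HC than in NC, against 1.05% of all genes, and 20 were within 1.5-fold of NC with IL6 alone. After both, 13 of 20 were within 1.5-fold, as were 76.3% of all genes, 1 was lower and 0 were higher. Of the 20, 18 still had a net ratio below 0. The median ratio was -1.17 with hypoxia alone, -0.01 with IL6 alone and -0.39 after both, and that of HC+IL6 over HC was 0.81. Hmgcs1, the synthase that begins the mevalonate path, had log2 signals of 13.00 in NC, 11.95 in HC, 12.95 in NC+IL6 and 12.94 in HC+IL6, a full return. Cyp51, a sterol demethylase, returned in part, with 11.97, 10.25, 12.10 and 11.44. Lss, the lanosterol synthase, was the gene still lower, at 2.04-fold (11.20, 9.17, 11.38 and 10.17), though another probe set had a net ratio of -0.24. Idi1, Ebp, Insig1 and Stard4 stayed just short of 2-fold, with net ratios of -0.98, -0.86, -0.85 and -0.84. The 2 other probe sets of Stard4 had net ratios of -0.26 and -0.15.

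The promoter of Hmgcs1 is shown because it holds the sterol response element TCACNCCAC, in capitals, which was in 1.24% of all promoters. It was the only one among the 19 windows of the measured cholesterol genes with this element (5.26%). The stretch is from RefSeq on GRCm38.p6 and runs 5′ to 3′.
Hmgcs1 (chr13:119690158-119690278, plus strand): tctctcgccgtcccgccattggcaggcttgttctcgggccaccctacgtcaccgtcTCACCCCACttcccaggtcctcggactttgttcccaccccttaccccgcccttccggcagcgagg

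**Figure D5:**
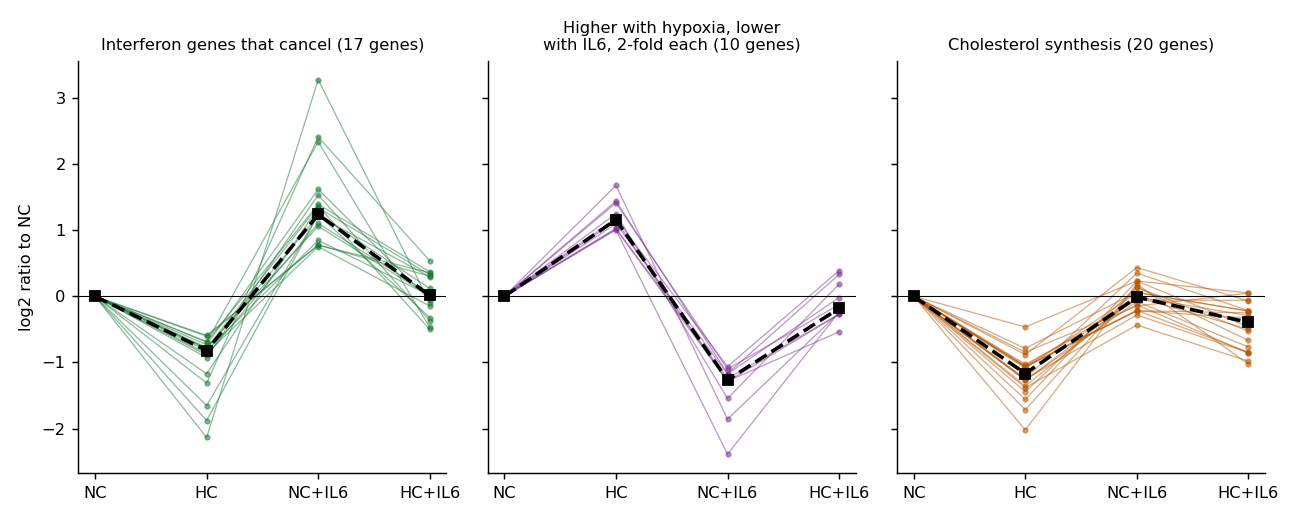
The log2 ratio to NC (vertical axis) is shown on each array (horizontal axis) for 17 cancelling interferon genes, 10 genes raised by hypoxia and lowered by IL6 by 2-fold each, and 20 cholesterol synthesis genes, with 1 thin line per gene and the dashed line at the median. The genes of the first 2 panels were chosen by these ratios, so their shape follows from the rule, whereas the cholesterol panel holds every measured gene of its list, whose median is -1.17 in HC, -0.01 in NC+IL6 and -0.39 in HC+IL6.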

How the data were processed

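RNA of RAW264.7 cells in 4 conditions was hybridized to 1 Affymetrix mouse array each. The authors deposited log2 signals of 45101 probe sets made with MAS5 (its version is not stated), and the values show that each array was scaled to a mean signal of 500 after trimming 2% at each end. A MAS5 signal close to background is unreliable, hence the floor. Detection calls were not used. Depth does not apply to arrays, and their number limits the precision.

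The ratios come from Python 3.11.15 with numpy 2.4.6 and pandas 2.3.3, figures with matplotlib 3.10.9, and alternatives with limma 3.58.1 in R 4.3.3. The calculation was tested on simulated data. Symbols came from a platform table in which 34958 probe sets carry 1 symbol, 932 several, and 9211 are not listed. Where several single-symbol probe sets shared a gene, the brightest on average across the arrays stood for it. Genes of the lists without such a probe set were not analysed here.

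Values under log2 7.5 were raised to 7.5. Calls were a matter of size (2-fold, which the study also used), without a test. The members, thresholds and gene lists were chosen with earlier results of these data known. Named genes were the 20 highest and 20 lowest, the 12 cancelling genes with the widest span between HC and NC+IL6, up to 5 per list with the largest net ratio, and genes the study names. Further genes of the lists, such as Ankrd37, Mgarp, Bnip3, Egln1, Stat3, Ccl3, Plau, Cebpa, Asns, Creld2, Bmf, Alox5, Mgst2, Hmgcs1 and Cyp51, were named after their values were seen. Promoter windows came from RefSeq (GRCm38.p6). Alternatives were floors of 7.0 and 8.0, dim values left as deposited, quantile normalization, cyclic loess, the mean over a gene's probe sets, and 64 added to every signal.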

Additional observations from a re-analysis of the deposited data

Results flagged for a closer look

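Cxcl2 went opposite ways under hypoxia without and with IL6. The log2 ratio of HC over NC was 1.78, with NC raised to the floor, and that of HC+IL6 over NC+IL6 was -2.13. Each is a ratio of 2 arrays, and the difference was not tested.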

How the results depend on the processing

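No paired analysis was possible because each condition has 1 array and the labels give no replicate numbers. Over 7 alternatives, 142 named genes gave 993 values, of which 979 stayed on the same side of 2-fold. For 0 of the values did a called gene change sign or an uncalled gene pass 2-fold the opposite way. A change of sign that stayed within 2-fold was not counted. Many named genes were picked for a large net ratio, so their calls hold more easily. Of all 544 calls, 83.3% were kept with 64 added, 83.5% at a floor of 8.0 and 86.8% as the mean over probe sets. By quantile normalization and by loess 90.6% were kept, and 100.0% at a floor of 7.0 and with dim values as deposited. Genes higher and lower numbered 406 and 138, and ranged from 333 (floor of 8.0) to 574 (dim values as deposited) and from 115 (64 added) to 175 (dim values as deposited). The probe sets higher numbered 1182 with dim values as deposited. The medians of 3 lists with dim members moved. That of M2 genes was 0.63 at a floor of 8.0, 2.0 with dim values as deposited and 1.55 with 64 added. That of M1 genes was 1.08 with dim values as deposited and 0.95 with 64 added, and that of chemokines and receptors 1.27 and 1.26. Of 93 cancelling genes, 75 were shared under the mean over probe sets and under 64 added, and 81 to 93 under the others. Single genes lost their call in places. These were Lss (-0.64 as the mean over probe sets and -0.99 with 64 added), Lztr1 (-0.76) and Txnip (just under 2-fold) as the mean over probe sets, Mcm6 (-0.99 by quantile normalization and -0.98 by loess), and Egr2 (0.80) and Rnf144b (-0.87) at a floor of 8.0. Acaca (-1.06 by quantile normalization), Ctsd (1.01 by loess) and Map3k8 (1.28 at a floor of 7.0) gained one. The cause was not tested. Without replicates, the size of a change cannot be set against the spread between cultures.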
